A study of Mus musculus with 4 samples.

Results

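Barcodes rich in mitochondrial transcripts are the droplets of a single-nucleus RNA library in which the 13 genes whose symbol starts with mt- held more than 5% of the UMIs, with at least 500 UMIs and at least 300 genes per barcode. A UMI (unique molecular identifier) marks a captured RNA molecule. In all, 5752 of 42941 barcodes met this rule (13.4%), and the other 37189 barcodes, with at most 5%, are called mitochondria-poor below. The members were chosen by this measured share alone. The nuclei were isolated from snap-frozen liver, and all donors were male C57BL6/J mice, an inbred strain, of wild type genotype. Of the 4 libraries, 2 are young (age 2 months) and 2 are aged (age 30 months). Nothing else was done to the mice per the labels, and the libraries are called replicates without saying that each came from a separate animal, so a p-value here reflects the variation among these 4 libraries and that variation could be technical. Values are given in the order young replicate 1, young replicate 2, aged replicate 1 and aged replicate 2 throughout.

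Mitochondrial messenger RNAs are transcribed and translated inside mitochondria, so a clean nucleus holds none of them. They mark a droplet that also caught cytoplasm or free RNA of the suspension, and these were not told apart here. In hepatocytes, the parenchymal cells of the liver, mRNAs of secreted proteins are translated on the rough endoplasmic reticulum, whose membrane is continuous with the nuclear envelope. Other RNAs, such as Malat1, stay in the nucleus, and some mRNAs are spliced slowly and wait there before export.

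The mitochondrial share set the rule, so its values are a description only. The median mitochondrial share of the members was 11.1%, 7.14%, 10.997% and 7.75%, with a maximum of 67.9%, 26.7%, 63.3% and 59.9%. Mitochondria-poor barcodes had medians of 0.366%, 0.594%, 0.906% and 0.426%. Near the threshold, 61, 223, 383 and 170 barcodes lay between 5% and 6%, and 59, 290, 531 and 196 lay between 4% and 5%. The deposited totals were 11799751, 17809372, 38457709 and 54777101 UMIs, and 8 to 67 barcodes were shared by any pair of libraries. Members had medians of 2830, 945.5, 2699.5 and 4213 UMIs against 3251, 944, 1933 and 2432 in mitochondria-poor barcodes, so neither group was the deeper one in every library.

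Members made up 23.8%, 5.90%, 30.1% and 5.91% of the barcodes, with exact 95% binomial intervals of 22.2% to 25.5%, 5.52% to 6.29%, 29.3% to 31.0% and 5.53% to 6.31%, which cover counting error only. Young libraries had a share of 14.8% ± 12.6 and aged ones of 18.0% ± 17.1 (SD, n = 2, exact two-sided permutation p = 0.667). With 2 libraries against 2 the smallest p such a test can give is 0.333. The libraries of the same age were 17.9 and 24.2 percentage points apart, and the aged and young ranges overlapped. Leaving out young replicate 2 or aged replicate 1 turned the difference of 3.18 percentage points to -5.76 and -8.93. Replicate 1 was the higher library at both ages, and its part in other results was not tested beyond leaving it out.

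Most members were hepatocyte-like. Barcodes were clustered without the mitochondrial genes, and 95.01% of the members (5465) fell in clusters with hepatocyte markers, against 74.9% of mitochondria-poor barcodes. Other named classes held 200 members in all, and 87 members and 4435 mitochondria-poor barcodes lay in clusters left unnamed. The largest unnamed cluster, with 2326 barcodes, had 6 hepatocyte markers beside 9 stellate/fibroblast markers. The hepatocyte-like percentages of the 2 groups thus depend on which clusters were left unnamed. In hepatocyte-like barcodes the member share was 26.0%, 7.20%, 35.3% and 7.45%. Stellate/fibroblast-like barcodes, the retinoid-storing and matrix-producing cells, had shares of 6.25%, 0.478%, 1.38% and 1.23%, and in each library their interval ended below that of the hepatocyte-like barcodes. Their upper bounds were 10.5%, 1.39%, 3.18% and 1.98%.

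Epithelial and lining cells of young replicate 1 were the exception. There, 22 of 29 cholangiocyte-like barcodes, the cells of the bile ducts, were members (75.9%, interval 56.5% to 89.7%), against 2.44%, 26.1% and 6.31% in the other libraries. Mesothelial-like barcodes, the cells of the liver surface, reached 43.3% (26 of 60, interval 30.6% to 56.8%) in young replicate 1. In young replicate 2 and aged replicate 2 their shares were 1.49% and 0 of 124, which allows up to 2.42% (3 counts of the total). Endothelial-like shares were 24.1%, 0 of 139 (up to 2.16%, again 3 counts), 3.63% and 2.29%. Among B-like barcodes, 22 of 122 were members in aged replicate 1 (18.0%, interval 11.7% to 26.0%), and T/NK-like barcodes had 9 of 56 there (16.1%) and 7 of 179 in aged replicate 2 (3.91%). Macrophage-like members numbered 1, 1, 2 and 6. The median UMI count of members was 1234 in cholangiocyte-like and 3116 in hepatocyte-like barcodes of young replicate 1, so the classes also differed in depth.

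**Figure D1:**
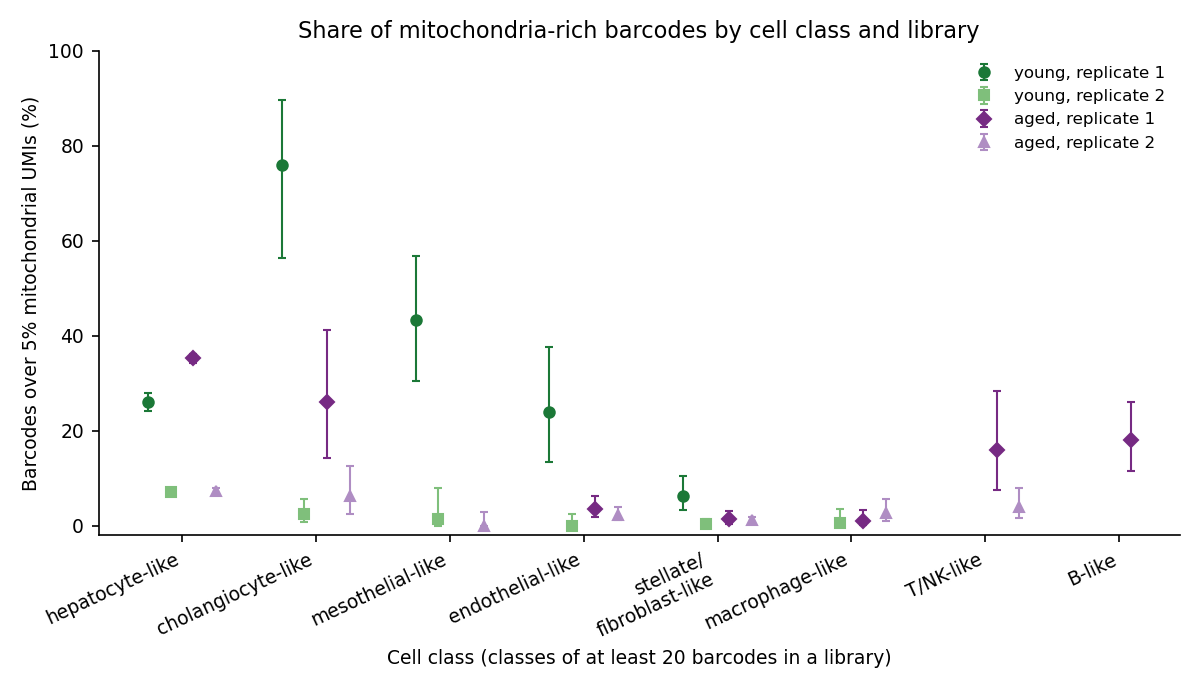
Share of barcodes with over 5% mitochondrial UMIs (y axis, %) in each rebuilt cell class (x axis), 1 point per library with its exact 95% binomial interval, for classes of at least 20 barcodes in a library. Hepatocyte-like shares lie at 26.0%, 7.20%, 35.3% and 7.45%, and the cholangiocyte-like share of young replicate 1, at 75.9%, is the highest point drawn.

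The proportions of the mitochondrial genes among themselves differed by at most 1.5 times between the groups except for mt-Cytb in young replicate 2 (4.17% in members against 6.52%) and mt-Atp8 (0.472% against 0.802%) and mt-Nd3 (0.905% against 1.48%) in young replicate 1. In hepatocyte-like members mt-Co1, a catalytic subunit of cytochrome c oxidase, gave 26.4%, 28.7%, 14.8% and 26.5% of mitochondrial UMIs, and in mitochondria-poor barcodes 25.03%, 25.9%, 16.8% and 25.7%. The same library stood apart for mt-Atp6, a subunit of ATP synthase, at 11.2%, 9.72%, 25.8% and 13.0% in members and 11.2%, 9.73%, 21.9% and 12.7% in mitochondria-poor barcodes. Aged replicate 1 thus had the lowest mt-Co1 and the highest mt-Atp6 proportion in both groups. mt-Co3 lay at 22.8%, 22.9%, 18.9% and 19.2% in members and at 22.1%, 22.6%, 18.3% and 19.4% in mitochondria-poor barcodes. Both young libraries were thus above both aged ones in each group.

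To ask which transcripts went with the mitochondrial RNA, counts of hepatocyte-like members were compared with those of mitochondria-poor hepatocyte-like barcodes of the same library, on non-mitochondrial UMIs only. After doublet removal 497, 797, 2935 and 723 members stood against 1441, 9513, 5575 and 8550 mitochondria-poor barcodes. Of 13933 genes tested, 1644 differed (11.8%), and 1132 were higher in members (8.12%) and 512 lower (3.67%) by edgeR's quasi-likelihood test with the library as a block (Benjamini-Hochberg threshold 0.05). The median log2 fold change of all genes tested was -0.04. Scaling to plain totals in place of TMM moved that median to -0.25 and the split to 1186 higher and 2536 lower. Without aged replicate 2 the count was 659 (548 higher, 111 lower).

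Members and mitochondria-poor barcodes also came from partly different clusters. Cluster 0 held most members of young replicate 1, cluster 9 those of young replicate 2, clusters 17 and 15 those of aged replicate 1 and cluster 13 those of aged replicate 2. Members made up 25.1%, 37.7%, 96.5%, 50.5% and 55.5% of those clusters' hepatocyte-like barcodes. A comparison within 1 main cluster of each library (0, 9, 17 and 13), added after seeing the data, called 439 of 10297 genes (4.26%), of which 425 were higher (4.13%) and 14 lower (0.136%). Its medians are given beside the lists below. Hepatocyte markers were all detected in the members (10 of 10, summed 53148 CPM, counts per 1000000 non-mitochondrial UMIs), against 65.0 CPM summed over 10 endothelial and 20.7 CPM over 9 macrophage markers.

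Secreted proteins of the plasma led the rise. Of 23 plasma carriers and serpins tested, 22 rose and none fell, with a median log2 fold change of 2.44 (1.12 within the main clusters). The acute-phase haptoglobin gene Hp (ENSMUSG00000031722, mm10 chromosome 8, 109575128 to 109579172), which binds free haemoglobin, lay at 76.7, 371, 330 and 192 CPM in mitochondria-poor barcodes and at 722, 2958, 4409 and 3018 CPM in members. The 2 groups do not overlap. Its log2 fold change was 3.67 ± 0.21 (SE, 4 libraries, edgeR adjusted p = 0.000152). Hpx, the haem carrier hemopexin, rose by a log2 fold change of 3.30 ± 0.21, from 183, 394, 525 and 246 CPM to 1316, 2820, 6366 and 2297 CPM. Serpina1b, a member of the alpha-1-antitrypsin family, rose by 2.90 ± 0.14. The serum amyloid genes Saa1 (3.34) and Saa2 (3.61), the orosomucoids Orm1 (3.39) and Orm2 (3.97), Lrg1 (3.17), Lcn2 (3.62), an iron-siderophore binding lipocalin, and Serpina1d (3.11) were also among the 15 largest rises. Serpina1, Saa and Orm genes belong to families of near-identical copies, so their individual values are uncertain. Saa4 did not pass (0.85, edgeR adjusted p = 0.0602).

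Apolipoproteins, the protein part of lipoprotein particles, rose in 11 of 12 cases (median 2.22, and 1.12 within the main clusters). Apoe (ENSMUSG00000002985, chromosome 7, 19696109 to 19699188), a ligand for lipoprotein receptors, lay at 482, 1875, 904 and 621 CPM in mitochondria-poor barcodes and at 3669, 11209, 11349 and 6621 CPM in members (log2 fold change 3.32 ± 0.24, SE, edgeR adjusted p = 0.000283). Every member value was above every mitochondria-poor value. Apoa1, the main protein of high-density lipoprotein, rose by a log2 fold change of 2.46, Apom by 2.21, Apoa4 by 3.65, Apoc3 by 3.10 and Apon by 3.35. Apoa5 was at 1.10 ± 0.30 (edgeR adjusted p = 0.0502) and did not pass. Of 23 complement and coagulation factors tested, 17 rose and none fell (median 1.39). The fibrinogen chains moved by like amounts, Fga by 2.18, Fgb by 2.13 and Fgg by 2.15. Fga lay at 168, 375, 1048 and 273 CPM against 693, 1342, 3648 and 1354 CPM. Alb, serum albumin, lay at 3486, 8799, 4993 and 4802 CPM against 12565, 25413, 38415 and 27179 CPM and rose by 2.38 ± 0.30.

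Together the plasma lists and the major urinary proteins held 2.73%, 4.50%, 3.55% and 2.62% of non-mitochondrial UMIs in mitochondria-poor hepatocyte-like barcodes. In members they held 7.55%, 14.7%, 19.1% and 11.8%, which is 2.77, 3.26, 5.37 and 4.50 times as much. Major urinary proteins, pheromone carriers made by the mouse liver, were mixed. Mup20 (2.9997), Mup21 (2.57), Mup3 (3.05), Mup1 and Mup12 rose, Mup10 fell (-0.64), and the other 5 of 11 did not pass. These genes are near-identical copies, and reads could be split among them.

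The machinery that makes and folds secreted proteins rose with them. Of 25 genes of endoplasmic reticulum folding and translocation, 20 rose and none fell (median 1.27, and 0.59 within the main clusters). Ddost, a subunit of the oligosaccharyltransferase that glycosylates new proteins, rose by a log2 fold change of 2.65 ± 0.29, from 5.61, 13.2, 5.56 and 7.38 CPM to 18.8, 48.8, 53.8 and 39.6 CPM. Pdia4, a disulfide isomerase, rose by 1.73 and Rpn1, another subunit of the same glycosylation complex, by 2.14.

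Ribosomal protein mRNAs rose almost without exception. All 33 of the small subunit and 46 of 47 of the large subunit passed, with medians of 1.5 for both (0.64 for both within the main clusters). The 1 that did not was Rpl10 (1.04 ± 0.34, edgeR adjusted p = 0.0843). Rplp1, a protein of the ribosomal stalk, lay at 30.7, 146, 63.0 and 39.8 CPM in mitochondria-poor barcodes and at 109, 309, 354 and 154 CPM in members (2.04 ± 0.24). Rpl37a, Rpl38, Rps27l, Rps26 and Rps29 rose by 1.71, 1.53, 1.64, 1.15 and 1.83. Many ribosomal protein genes have processed pseudogenes that can share reads with them, so single values are uncertain. The ribosomal protein mRNAs held 0.206%, 0.512%, 0.351% and 0.209% of non-mitochondrial UMIs in mitochondria-poor barcodes and 0.411%, 0.904%, 1.49% and 0.546% in members. Of 20 translation factors 9 rose and none fell (median 0.64). Tpt1, an abundant growth-related mRNA, rose by 1.89, and the elongation factor subunits Eef1b2 and Eef1a1 by 1.46 and 1.49.

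The lists of mitochondrial proteins encoded in the nucleus differed from each other, and the part of gene length in this was not tested. Of 62 genes of oxidative phosphorylation, the respiratory chain and ATP synthase, 49 rose and none fell (median 0.90, and 0.41 within the main clusters). Cox4i1, a regulatory subunit of cytochrome c oxidase, lay at 38.7, 107, 64.0 and 44.3 CPM against 144, 310, 228 and 139 CPM (1.91 ± 0.12, edgeR adjusted p = 0.000152). Every member value was above every mitochondria-poor value. Cox6c and Cox7c rose by 1.65 and 1.25. Among 36 mitochondrial ribosomal proteins 6 rose and none fell (median 0.26), Mrpl34 by 1.13, Mrps12 by 0.84 and Mrpl52 by 0.75. Of 32 enzymes of the mitochondrial matrix 1 rose, the fatty acid oxidation enzyme Acadvl (0.69 ± 0.14), and none fell (median 0.03, and -0.15 with plain totals). Gls2 and Etfb were at 0.52 and 0.46 (edgeR adjusted p = 0.0530 and 0.0705). Cps1, the first enzyme of the urea cycle, which works in the matrix, lay at 10871, 3779, 6093 and 5205 CPM in mitochondria-poor barcodes and at 11150, 3541, 4905 and 4445 CPM in members (log2 fold change 0.03 ± 0.13, edgeR adjusted p = 0.941).

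Other cytoplasmic mRNAs gave intermediate counts. Of 30 cytochrome P450s and other microsomal enzymes, 11 rose and 2 fell (median 0.41). Hsd11b1, which regenerates active glucocorticoid, rose by 2.61, Cyp8b1, an enzyme of bile acid synthesis, by 1.74, and Cyp2d10 by 1.00, while Cyp2c37, a pericentral P450, fell by 1.52 on the log2 scale. In cytosolic metabolism 9 of 35 rose and 4 fell (median 0.27), with Gstm1 at 1.42, Gapdh at 1.00 and Bhmt at 0.71. Of 16 short mRNAs of iron storage and antioxidant defence 8 rose and none fell (median 0.37), among them Fth1, ferritin heavy chain (2.20), Gpx1 (1.61) and Mt1 (1.30). Of 16 cytoskeletal genes 8 rose and none fell (median 0.70), with Actb at 1.14, Krt18 at 1.16 and Myl6 at 0.73. Heat shock chaperones passed in 3 of 11 cases (Hspe1 0.61, Hsp90ab1 0.66 and Hspd1 0.47) and immediate early genes in 2 of 11 (Egr1 0.94 and Jund 1.33), all higher. Jun was at 0.72 (edgeR adjusted p = 0.0623).

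**Figure D2:**
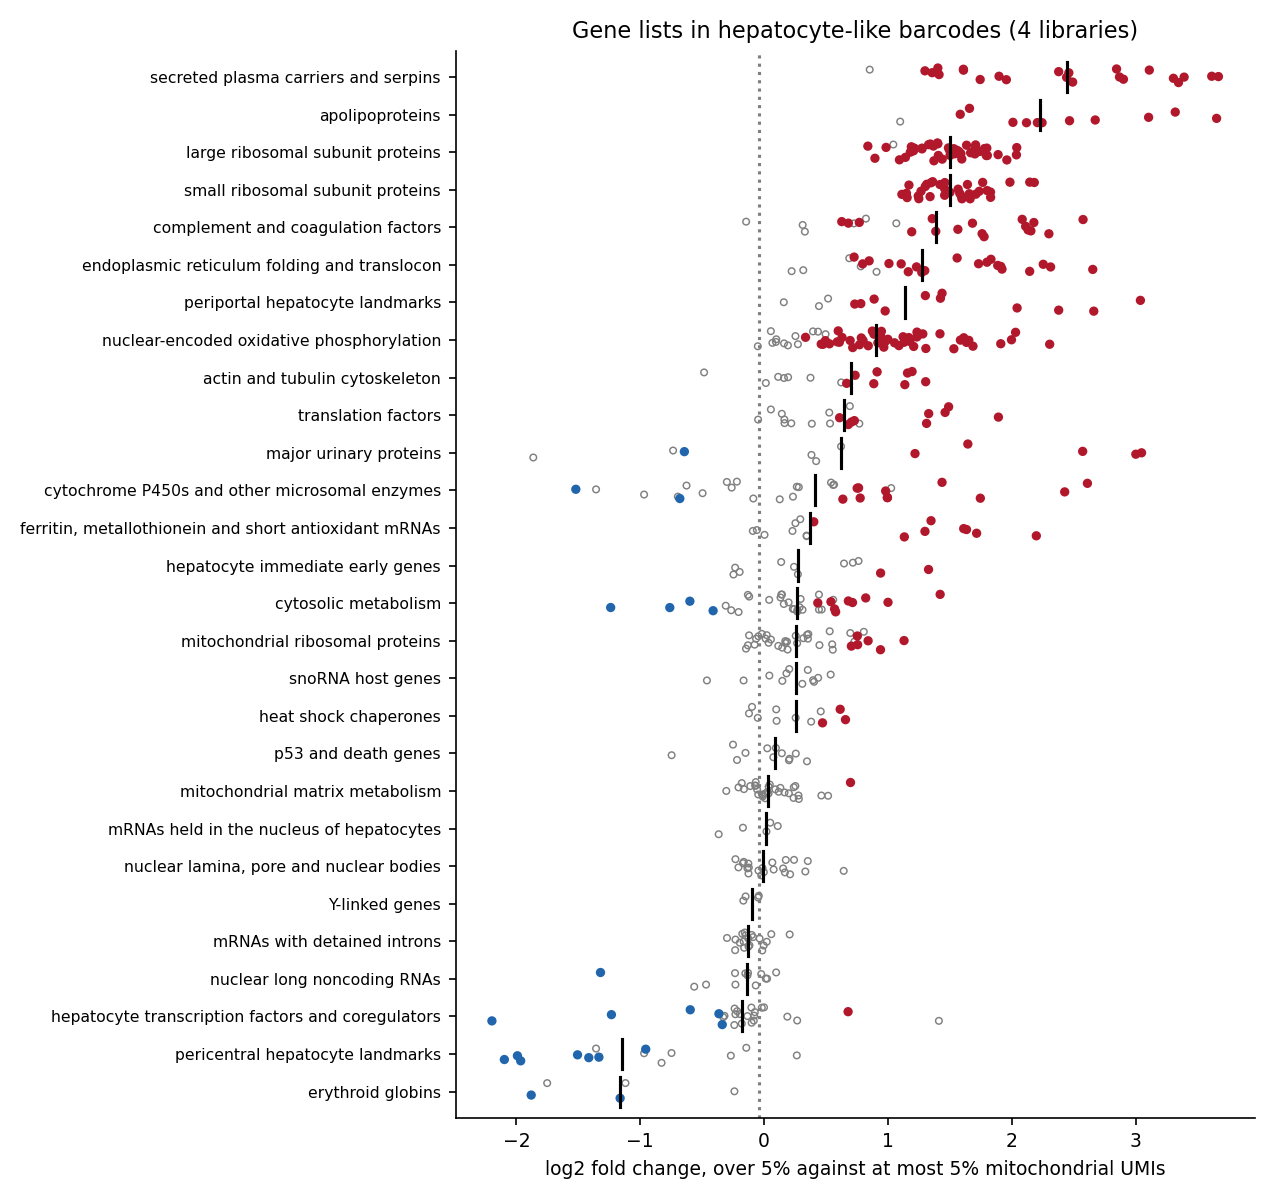
Log2 fold change of members against mitochondria-poor hepatocyte-like barcodes (x axis) for each tested gene of each list (y axis). Filled red points are higher and filled blue points lower at an edgeR adjusted p under 0.05, open points did not pass, black bars are list medians and the dotted line is the median of all genes tested (-0.04). Medians run from 2.44 for plasma carriers to -1.16 for globins.

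Few genes passed the test in the lists of RNAs that stay or wait in the nucleus. The same held for lists named by function, those of nuclear lamina and pore, snoRNA host and p53 and death genes. Of all genes tested 11.8% passed (8.12% higher and 3.67% lower), and the lists below are short. Malat1 (ENSMUSG00000092341), a long noncoding RNA of nuclear speckles, lay at 16616, 24313, 48609 and 35601 CPM in mitochondria-poor barcodes and at 17948, 17516, 39473 and 35898 CPM in members. On these plain totals it was higher in members in young replicate 1 and aged replicate 2 and lower in the other libraries, while on the TMM scale of the test its log2 ratio was 0.09, -0.50, 0.13 and 0.01, so the direction in aged replicate 1 turns with the scaling (log2 fold change 0.01 ± 0.19, SE, edgeR adjusted p = 0.985). Neat1, the scaffold of paraspeckles, was at -0.13 ± 0.13 (edgeR adjusted p = 0.583). Of 13 nuclear long noncoding RNAs tested none rose and 1 fell (median -0.13), the antisense transcript Airn of the Igf2r locus (-1.33 ± 0.21), from 129, 150, 117 and 170 CPM to 76.5, 69.4, 33.7 and 35.5 CPM. Whether the counting used strand is not given, so reads of Airn and of Igf2r may not be told apart. Of 20 mRNAs with detained introns none passed (median -0.13), and Luc7l3, Clk4 and Pnisr, genes of splicing, were at -0.30, -0.23 and -0.23. None of 5 mRNAs reported to be held in the hepatocyte nucleus passed, and Mlxipl, which encodes the glucose-responsive factor ChREBP, was lower in each library (-0.37 ± 0.11, edgeR adjusted p = 0.0683). None of 22 genes of the nuclear lamina and pore passed either (median -0.01), with Npm1 at 0.64, Sun2 at 0.33 and Nup98 at -0.21. None of 12 snoRNA host genes passed (median 0.26, Gas5 at 0.54), nor any of 12 p53 and death genes (median 0.08). Under plain totals the medians of the detained-intron, nuclear-held and lamina lists were -0.31, -0.16 and -0.21, beside -0.25 for all genes.

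Of 25 hepatocyte transcription factors and coregulators 1 rose, Cebpa (0.68 ± 0.17), and 5 fell (median -0.18), where 8.12% and 3.67% of all genes did. Those were Esrrg (-2.20), the fatty acid sensor Ppara (-0.60), the xenobiotic receptor Nr1i3 (-1.23), Rxra (-0.37) and Nr5a2 (-0.34). Hnf4a, the central hepatocyte factor, was at -0.20 (edgeR adjusted p = 0.222). Among erythroid genes, markers of red cell RNA in the suspension, 2 of 5 fell, Hba-a1 (-1.88) and Hbb-bs (-1.16), with Hbb-bt at -1.75 (edgeR adjusted p = 0.108). The alpha- and beta-globin copies are near-identical, and their levels were at most 10.7 CPM in both groups.

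Genes of lobular position moved in opposite directions. Hepatocytes differ along the lobule, from the portal vein to the central vein, and pericentral cells carry out glutamine synthesis and P450 metabolism under Wnt signals. Of 14 pericentral landmarks 7 fell and none rose (median -1.15), and of 14 periportal landmarks 11 rose and none fell (median 1.14). Lgr5, a Wnt co-receptor of pericentral cells, lay at 75.7, 98.6, 88.1 and 92.9 CPM in mitochondria-poor barcodes and at 32.2, 23.1, 10.4 and 16.96 CPM in members (-2.10 ± 0.22, edgeR adjusted p = 0.00115). The groups do not overlap. The glutamate transporter Slc1a2 went from 729, 515, 717 and 679 CPM to 406, 177, 81.5 and 85.7 CPM (-1.97 ± 0.33), and Glul, glutamine synthetase, from 332, 309, 117 and 192 CPM to 204, 156, 24.0 and 45.9 CPM (-1.33 ± 0.22). Tbx3, Rnf43, Axin2 and Gulo fell by 1.99, 0.96, 1.51 and 1.42 on the log2 scale. Pigr, the transporter of immunoglobulin A into bile, rose by 3.04 ± 0.20, Aldh1b1 by 2.66 and Hsd17b13, a lipid droplet enzyme, by 1.30. Alb and several other periportal landmarks encode secreted or endoplasmic reticulum proteins, and Alb is in both the plasma and the periportal list.

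The reference within the main clusters lay nearer the threshold, at a median of 0.299%, 2.67%, 3.89% and 2.87% mitochondrial and with only 64 barcodes in aged replicate 1, and the clusters were built from the same transcripts, so its smaller medians are not a like comparison. Within the main clusters 2 pericentral landmarks fell, 1 rose and the median was -0.30, and 7 periportal landmarks rose with a median of 0.50. The 15 largest falls over all hepatocyte-like barcodes were Themis (-2.87), Nxph1 (-2.49), Kcnb2 (-2.37), Abcc4 (-2.31), Esrrg (-2.20), Lhpp (-2.15), Cyp2c38 (-2.15), Tox (-2.12), Lgr5, Tomm40l (-2.07), Rcan2 (-1.997), Tbx3, Slc1a2, Tenm3 (-1.90) and Npr2 (-1.89). Themis is also a T-cell marker. It lay at 8.97, 12.02, 70.0 and 46.4 CPM in mitochondria-poor and at 5.36, 5.14, 5.71 and 3.45 CPM in member hepatocyte-like barcodes, and the 9 T/NK markers, Themis included, summed to 14.8 CPM in members and 59.9 CPM in mitochondria-poor barcodes. The part of T-cell RNA in this fall was not tested. Besides plasma proteins, the 15 largest rises held Ces2e, an endoplasmic reticulum carboxylesterase (3.27). It lay at 9.39, 28.3, 10.8 and 10.1 CPM against 68.4, 181, 94.7 and 119 CPM.

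The secreted-protein mRNAs went with the mitochondrial share on both sides of the threshold. Barcodes were put in ranges of 0 to 1%, 1 to 2.5%, 2.5 to 5%, 5 to 10%, 10 to 20% and over 20%, and the last held at least 20 barcodes in replicate 1 of each age only. The ranges also differed in depth, with medians of 3604, 982, 807, 1056, 4150 and 4534 UMIs in aged replicate 1. In aged replicate 2 the medians were 3091, 966, 3933, 4402 and 4125 UMIs. They lay between 2921 and 3726 in young replicate 1 and between 744 and 974 in young replicate 2. The part of depth in the values below was not tested. In aged replicate 1 the secreted-protein mRNAs held 2.92%, 4.66%, 7.89%, 13.6%, 20.2% and 23.7% of non-mitochondrial UMIs over these ranges. In aged replicate 2 they held 2.33% in the lowest range and 14.4% at 10 to 20%, and in young replicate 2 3.73% and 16.9%. In young replicate 1 they went from 2.55% to 8.60% at 10 to 20% and lay at 7.39% above 20%. Just below and just above the threshold, at 4 to 5% and 5 to 6%, the values were 5.25% and 5.57%, 11.7% and 12.5%, 8.74% and 10.5%, and 8.19% and 9.07%. The values on the 2 sides of 5% were thus close to each other in every library. Between the lowest and the highest range Malat1 went from 4.77% to 3.32% in aged replicate 1 and 1.66% to 1.54% in young replicate 1. By 10 to 20% it went from 2.505% to 1.43% in young replicate 2 and from 3.55% to 3.30% in aged replicate 2. In young replicate 2 each range lay below the one before, but elsewhere the path was not steady. Malat1 lay at 5.39% at 1 to 2.5% in aged replicate 1 and at 1.94% at 5 to 10% in young replicate 1. In aged replicate 2 it lay at 3.84% at 2.5 to 5%.

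**Figure D3:**
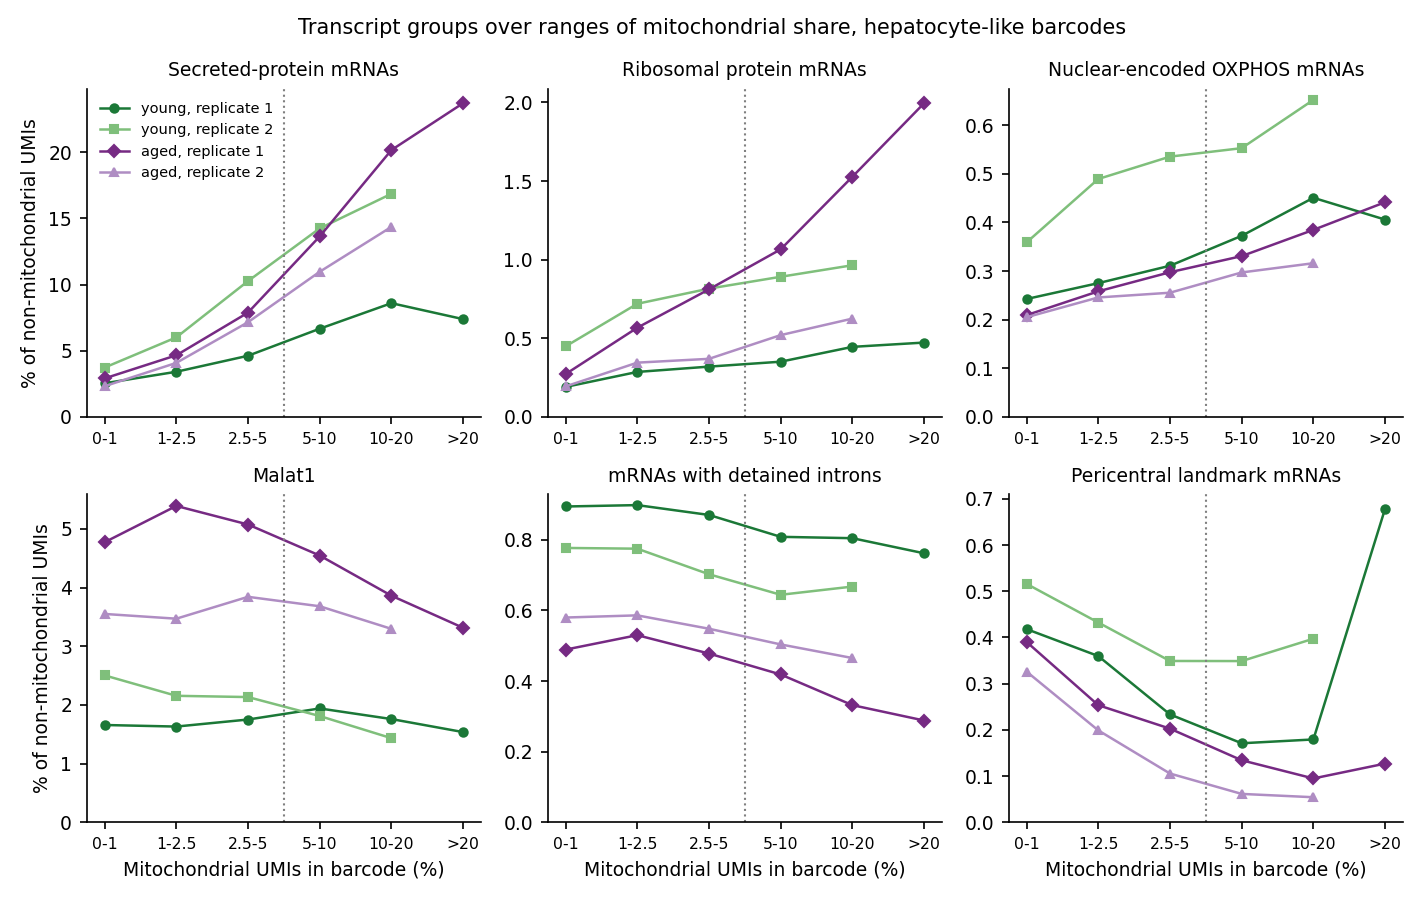
Share of non-mitochondrial UMIs (y axes, %) held by 6 transcript groups in hepatocyte-like barcodes over ranges of mitochondrial share (x axes, %), 1 line per library, with the 5% threshold dotted and ranges under 20 barcodes left out. Secreted-protein mRNAs climb to 23.7% in aged replicate 1 and to 8.60% in young replicate 1, and the pericentral landmarks of young replicate 1 return to 0.678% above 20%. The ranges also differ in median UMIs per barcode.

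Above 20% mitochondrial, where only replicate 1 of each age could be read, the pericentral landmarks lay higher than at 10 to 20% in both. In young replicate 1 the pericentral landmarks held 0.418% of non-mitochondrial UMIs below 1% mitochondrial, 0.171% at 5 to 10% and 0.179% at 10 to 20%, but 0.678% in the 113 barcodes above 20%. There Cyp2e1, an ethanol-metabolising P450, lay at 2052 CPM against 389 CPM at 5 to 10%. Slc1a2 lay at 1116 against 281 CPM and Glul at 523 against 137 CPM. In aged replicate 1, with 443 barcodes above 20%, the landmarks held 0.127% there against 0.0949% at 10 to 20% and 0.390% below 1%, with Cyp2e1 at 266 against 162 CPM and Slc1a2 at 81.6 against 47.9 CPM. In young replicate 1 the Slc1a2 UMIs above 20% lay in 29 of the 113 barcodes. These values were not tested.

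The genes that rose were short. Gene structure was taken from the GENCODE vM21 annotation of the same build, and 11999 tested genes were protein-coding. The median span, from first to last base with introns, was 10.00 kb for those that rose and 79.6 kb for those that fell, against 26.7 kb for all. Of genes up to 5 kb, 29.0% rose and 0.718% fell, while of genes over 250 kb 3.42% rose and 9.08% fell. Across genes, which are not independent replicates, Spearman's rho of the log2 fold change was -0.40 with span, -0.24 with exon number, -0.26 with spliced length and -0.05 with mean CPM. With the plasma, major urinary, ribosomal, oxidative phosphorylation and endoplasmic reticulum lists set aside, 21.7% of genes up to 5 kb still rose. Of 507 intergenic long noncoding RNAs (the lincRNA biotype) 1.97% rose and 9.47% fell, and of 969 antisense genes 0.826% rose and 8.88% fell. The counts do not separate intronic from exonic reads.

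**Figure D4:**
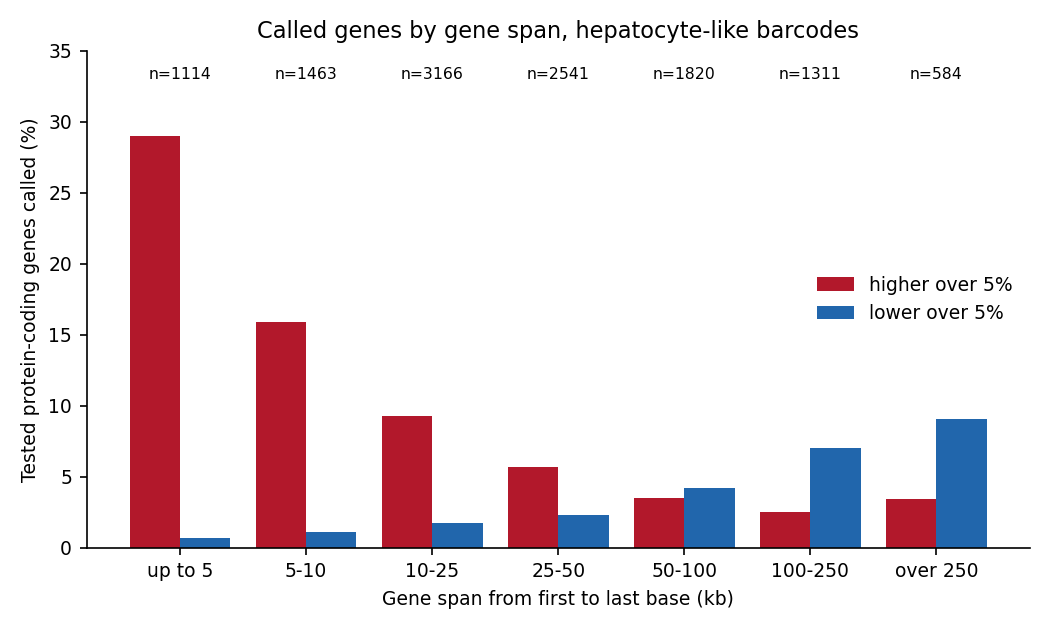
Share of tested protein-coding genes (y axis, %) called higher (red) or lower (blue) in members, by gene span (x axis, kb), with the number of genes above each pair of bars. Higher calls go from 29.0% of genes up to 5 kb to 3.42% of those over 250 kb, and lower calls from 0.718% to 9.08%.

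Complexity was slightly lower in members. With each hepatocyte-like barcode thinned to 500 non-mitochondrial UMIs, members had a median of 402, 399, 380 and 400 genes against 407, 421, 411 and 412 in mitochondria-poor barcodes. Without thinning the medians were 1529, 639, 1348 and 2062 genes against 1902, 715, 1402 and 1737. Thinning left out 4, 3, 134 and 0 members and 0, 52, 81 and 18 mitochondria-poor barcodes.

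The difference between members and mitochondria-poor barcodes was itself compared between ages. Of 15420 genes 72 passed (0.467%), 50 with a higher (0.324%) and 22 with a lower (0.143%) member-to-poor ratio in aged than in young libraries (edgeR's quasi-likelihood test of the age by fraction term). Cyp2e1 lay at 1081, 1663, 1380 and 1162 CPM in mitochondria-poor barcodes and at 769, 1692, 229 and 133 CPM in members, with low values in the aged members. Its log2 ratio differed between ages by -2.39 ± 0.31 (SE, edgeR adjusted p = 0.00668). Of 14 pericentral landmarks 4 had a lower ratio in aged libraries, Cyp2e1, Glul (-1.11), Slc1a2 (-1.67) and Gulo (-1.87), and none a higher one (median -1.10, against 0.13 for all genes tested in both fits). Without barcodes above 20%, an alternative added after seeing the data, Cyp2e1 lay at 468, 1682, 221 and 134 CPM in members and its difference was -2.10 (edgeR adjusted p = 0.0385). Slc1a2 (-1.29, edgeR adjusted p = 0.0335) and Gulo (-1.72, edgeR adjusted p = 0.0157) still passed, Glul did not (-0.81, edgeR adjusted p = 0.181), and the call over all genes went from 72 to 42 (34 higher, 8 lower). Tenm3, a teneurin adhesion molecule, went from 246 and 323 to 157 and 157 CPM in young libraries and from 350 and 345 to 40.2 and 31.1 CPM in aged libraries (-2.20 ± 0.25). Tafa2 (-2.53), Tnfrsf19 (-2.36) and Plbd1 (-2.07) completed the 5 largest on this side.

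By the naming rule the 5 largest differences in the other direction were Pigt, Smpd1, Cd81, Apoc2 and Sdc1. Apoc2, the activator of lipoprotein lipase, went from 58.6 and 133 to 114 and 345 CPM in young libraries and from 72.4 and 47.2 to 605 and 299.6 CPM in aged libraries (1.91 ± 0.27, edgeR adjusted p = 0.0124). Sdc1, a heparan sulfate proteoglycan that takes up lipoproteins, differed by 1.85, the tetraspanin Cd81 by 1.99, the lysosomal sphingomyelinase Smpd1 by 1.99 and Pigt, a subunit of the enzyme that attaches lipid anchors, by 2.01. Large and small ribosomal proteins passed in 6 of 47 and 3 of 33 cases, apolipoproteins in 3 of 12 and plasma carriers in 3 of 23, all higher in aged. Their medians were 1.04, 1.09, 0.80 and 0.95. Scaling by RLE moved the median of all genes in this fit from 0.14 to 0.01 and called 204 genes. The balance of the 2 directions depended on the libraries, with 35 higher and 52 lower without aged replicate 1, 21 and 21 without young replicate 2 and 644 and 49 without aged replicate 2. The count was 308 without the low-count filter and 124 by DESeq2.

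**Figure D5:**
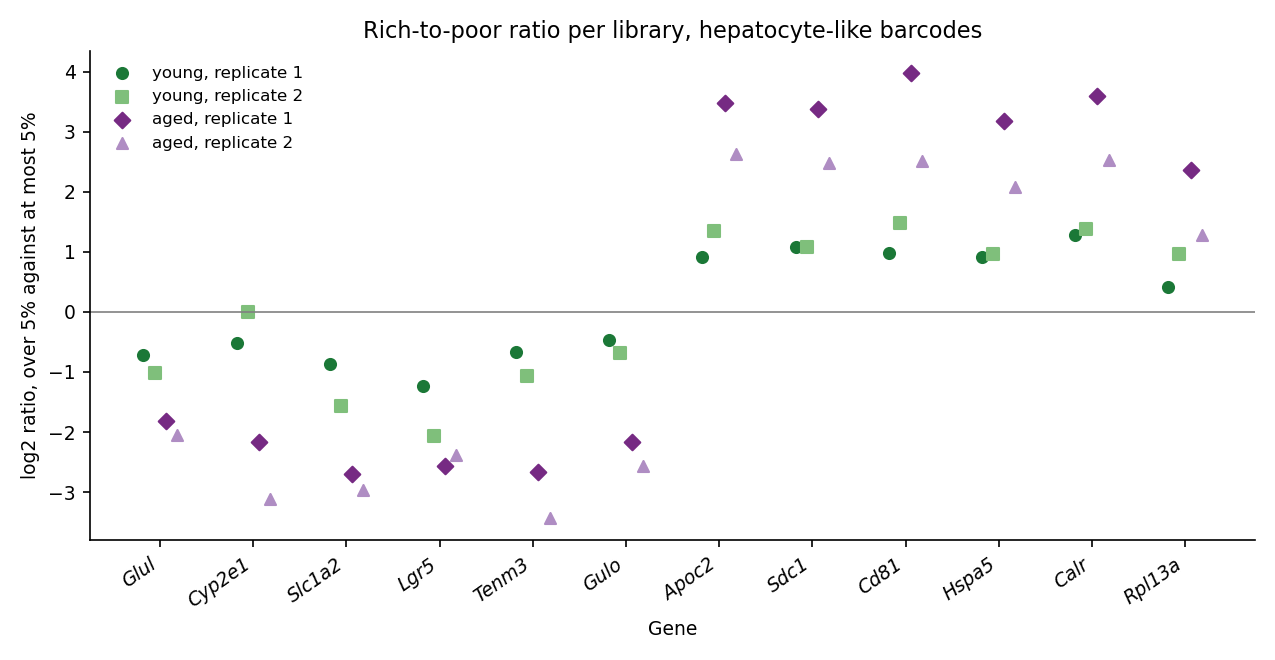
Log2 ratio of members to mitochondria-poor hepatocyte-like barcodes (y axis, TMM-scaled CPM plus 1) for 12 genes chosen for display after their values were seen (x axis), 1 point per library. Pericentral genes such as Cyp2e1 lie lower in both aged libraries, and Apoc2, Sdc1 and Cd81 lie higher in both aged libraries than in both young libraries. The naming rule required such a separation of Cyp2e1, Tenm3, Apoc2, Sdc1 and Cd81. Lgr5 and Rpl13a did not pass the test of the difference.

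Aged and young members differed in few genes. Of 11076 genes 7 passed (0.0632%), 4 higher (0.0361%) and 3 lower (0.0271%) in aged members by edgeR's quasi-likelihood test, and 1490 had an unadjusted p under 0.05. DESeq2 called 218, leaving out aged replicate 2 gave 384, aged replicate 1 gave 68, young replicate 1 gave 2 and young replicate 2 gave 12. Pcdh11x, a protocadherin, lay at 1.34, 7.71, 338 and 668 CPM in members and at 2.52, 4.04, 243 and 358 CPM in mitochondria-poor barcodes, so its difference with age stood in both groups. Rxfp1 (1.34, 0, 58.0 and 54.6 CPM in members) and Nebl (4.69, 10.3, 251 and 153 CPM) were likewise high in both aged libraries. Tsku, a secreted protein, lay at 98.6, 163, 2.58 and 7.85 CPM in members and at 132, 187, 9.91 and 35.3 CPM in mitochondria-poor barcodes. The urinary protein genes Mup11 (308, 258, 1.08 and 4.71 CPM) and Mup17 (182, 116, 1.83 and 2.83 CPM) were low in both aged libraries, with the uncertainty of near-identical copies. The remaining call was the predicted gene Gm30382.

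Outside hepatocytes the members were too few for a test, since no class held 20 barcodes of both groups in 3 libraries. Their values are sums over barcodes of 1 library, with exact Poisson intervals that cover counting error only. In young replicate 1 the secreted-protein mRNAs held 1.63% of non-mitochondrial UMIs in 22 cholangiocyte-like members (interval 1.48% to 1.79%). In the 7 others these mRNAs held 1.11%. They held 1.52% against 1.27% in mesothelial-like, 4.04% against 2.37% in endothelial-like and 2.83% against 1.36% in stellate/fibroblast-like barcodes. In aged replicate 2 they held 5.86% against 2.22% in endothelial-like and 6.75% against 1.64% in stellate/fibroblast-like barcodes. Hepatocyte markers summed to 18188 CPM in endothelial-like members and endothelial markers to 10746 CPM, against 12031 and 9413 CPM in mitochondria-poor endothelial-like barcodes. The part of hepatocyte RNA in these values was not tested.

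The secreted mRNAs can be set against the mitochondrial UMIs that chose the members, as a description with no test. In young replicate 1 there were 43.8 secreted-protein UMIs per 100 mitochondrial UMIs in hepatocyte-like members. Cholangiocyte-like members had 12.5 (interval 11.4 to 13.7), mesothelial-like 18.5 (16.9 to 20.1), stellate/fibroblast-like 9.78 (8.64 to 11.02) and endothelial-like members 32.5 (29.8 to 35.4), with intervals for counting error in 1 library only. In aged replicate 1, B-like members had 29.6 (26.9 to 32.5) against 108 in hepatocyte-like members. In aged replicate 2 the values were closer, 58.2 in cholangiocyte-like, 70.7 in endothelial-like and 80.6 in stellate/fibroblast-like members against 127.

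Ribosomal protein mRNAs and Malat1 could be followed in the same droplets. In aged replicate 1 the 21 B-like members kept after doublet removal held 3.22% of non-mitochondrial UMIs in ribosomal protein mRNAs (interval 2.94% to 3.51%) against 1.97% in the 98 mitochondria-poor B-like barcodes, and Malat1 was at 2.79% against 2.34%. In young replicate 1 ribosomal protein mRNAs were at 0.684% against 0.295% in cholangiocyte-like and at 0.409% against 0.235% in mesothelial-like barcodes, with intervals that do not overlap. Malat1 was at 2.17% (2.00% to 2.35%) against 3.31% (2.96% to 3.69%) and at 2.67% against 3.24% in the same classes, lower in members in both. Other libraries did not all follow. Cholangiocyte-like ribosomal protein mRNAs were at 1.05% (0.748% to 1.43%) against 1.06% in young replicate 2, where only 5 members were summed. They were at 1.68% against 1.07% in aged replicate 1 (12 members) and at 0.888% against 0.591% in aged replicate 2 (7 members). Malat1 was at 3.93% against 3.63%, at 7.19% against 7.07% and at 4.37% against 5.45% in these 3 libraries.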

How the data were processed

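Single-nucleus RNA was measured in 2 young and 2 aged mouse liver libraries. The authors deposited raw UMI counts as 1 gene-by-barcode matrix per library. The submitters' processing notes name Cell Ranger 7.1.0 and the mm10 build. Every deposited barcode held at least 500 UMIs, and 72 barcodes of young replicate 1 had under 300 genes and were left out. Whether intronic reads were counted is not given in the sources used here. Free RNA was not removed.

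The members, gene lists and tests were chosen with earlier results of these data known. Mitochondrial genes were left out of clustering, totals and tests. Barcodes were scaled to 10000 counts, and 2000 variable genes, 30 components and 20 neighbours entered Leiden clustering at resolution 1 (scanpy 1.11.5, igraph 0.11.9). Clusters were named "-like" from at least 3 fixed markers and 40% of a class's markers at 2 times the comparison level. These thresholds were set after seeing the data. No authors' annotation was used, so names are rebuilt. Scrublet's automatic threshold marked 1 barcode, so the top scores were removed at 0.8% per 1000 barcodes for all sums. Members were counted before that, and 563 of them were removed (9.79%, against 10.4% of the rest).

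Counts were summed per library and group and tested with edgeR 4.0.16 (R 4.3.3, filterByExpr, TMM, quasi-likelihood F test, Benjamini-Hochberg threshold 0.05). The fit of members against mitochondria-poor barcodes had the library as a block. The TMM factor of aged replicate 1 members was 0.742 against 1.00 for its mitochondria-poor sum, so fold changes differ from ratios of the plain CPM printed. Only the fit of members against mitochondria-poor barcodes was tested on simulated data. DESeq2 1.42.0 was an alternative.

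Genes named had an adjusted p under 0.05, the same direction in all libraries and at least 10 CPM on average. In the age comparisons the condition on direction was that both aged libraries lay on the same side of both young ones. The 15 largest rises and falls were taken (5 in the age comparisons), predicted genes skipped, and of each list the 3 members with the smallest p. Members described beyond these were chosen after their values were seen. Positions and gene structure came from GENCODE vM21 (32235 identifiers matched, 99.8%).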

Additional observations from a re-analysis of the deposited data

Results flagged for a closer look

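The age by fraction test flagged 72 genes whose member-to-poor ratio differed between aged and young hepatocyte-like barcodes. The 10 named by the rule are the log2 differences of Pigt (2.01), Smpd1 (1.99), Cd81 (1.99), Apoc2 (1.91) and Sdc1 (1.85), higher in aged libraries, and of Tafa2 (-2.53), Cyp2e1 (-2.39), Tnfrsf19 (-2.36), Tenm3 (-2.20) and Plbd1 (-2.07), lower in aged libraries. The naming rule itself required both aged libraries to lie on the same side of both young libraries, so that separation is not a result. Of the 10, 4 did not pass without young replicate 1, 5 without young replicate 2, 2 without aged replicate 1 and 4 without members above 20% mitochondrial (Smpd1, Tafa2, Tnfrsf19 and Plbd1). The member share and the main clusters of members also differed between the libraries, and their part in these differences was not tested.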

How the results depend on the processing

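The count of genes that differed between members and mitochondria-poor hepatocyte-like barcodes (1644) ranged from 659 to 1790 when each library was left out in turn, with the lowest value without aged replicate 2. It was 3722 with plain totals and 439 within the main clusters, an alternative added after seeing the data in which fewer genes and barcodes were tested. With no replicate block, that is without the library term that pairs the 2 sums of a library, edgeR called 0 genes (1007 at an unadjusted p under 0.05). RLE scaling, DESeq2, no low-count filter, doublets kept, a threshold of 10%, a reference of at most 1% and a minimum of 1000 UMIs gave 1477 to 2314. None of the 84 named genes reversed, and 26 no longer passed within the main clusters and 9 without aged replicate 2. The count for the age by fraction term (72) was 204 with RLE, 308 without the filter and 124 by DESeq2, 42 without members above 20% mitochondrial (added after seeing the data), and ranged from 42 to 693 over left-out libraries. Of its 10 named genes none reversed, while 4 no longer passed without young replicate 1, 5 without young replicate 2, 2 without aged replicate 1, 4 by DESeq2 and 4 without members above 20%. The count of age differences in members (7) was 656 without the filter and 218 by DESeq2, and ranged from 2 to 384 over left-out libraries. Of its 6 named genes 4 no longer passed without young replicate 1 and 3 without young replicate 2. Where a left-out library leaves 1 library of an age, that library is assumed to vary like the others. With the replicate number as a block this count was 257. Whether the numbers pair the samples is not known. Same-numbered libraries had a correlation of deviations of -0.271, a value that cannot decide this with 2 libraries per age. The crossed pairing, added after seeing the data, called 1112 genes. The aged minus young difference in member share (3.18 points) ranged from -8.93 to 15.3 points, and was reversed without young replicate 2 (-5.76) and without aged replicate 1 (-8.93). The cause of these changes was not tested. Fits in classes other than hepatocyte-like were not run, since too few libraries held 20 barcodes of both groups.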
